A study of Mus musculus with 99 samples.

Results

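The genes described here are 9 that code for small calcium-binding proteins of the cytosol or for calmodulin: Ocm, Pvalb, Calb1, Calb2, Calm2, Calm3, Sri, S100a1 and S100b. They were taken by name from a table of 55291 gene symbols. The table held read counts of 99 single cells of the mouse cochlea (strain C57BL/6), each picked by hand for its tdTomato fluorescence and made into a full-length cDNA library. The first group was 32 outer hair cells (OHCs) at postnatal day 30, genotype Slc26a5-CreER/+; Ai9/+, where Ai9 is a tdTomato reporter and no Tbx2 was added. The second group was 67 cells at postnatal day 42, genotype Slc26a5-CreER/+; Rosa26Tbx2/+, which the labels call converted inner hair cells (cIHCs): they began as OHCs and express Tbx2 from the Rosa26 locus. All 99 cells thus carry 1 copy of an inducible Cre at Slc26a5, the gene of the OHC motor protein prestin, and the agent and day of induction are not given in the sources used here. Age and genotype changed together, so their parts cannot be told apart, and no cell is titled as an endogenous inner hair cell (IHC).

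OHCs change length with sound and sharpen the vibration of the cochlea, whereas IHCs release transmitter onto the auditory nerve. In both, calcium enters through channels and is bound within moments by mobile buffers, proteins built on the EF-hand, a helix-loop-helix whose loop holds the ion. Oncomodulin, the product of Ocm, is known as the main buffer of mature OHCs; parvalbumin, calbindin and calretinin are the other classical buffers of hair cells, and calmodulin carries the calcium signal on to enzymes and channels.

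No label tells which animal a cell came from. Each group therefore counts as 1 sample, the comparisons have no replicate check and no p-value is given. Levels are CPM, a gene's share of all counts on the usual fixed scale, either in 1 cell or pooled, where the counts of a group are summed first. Ratios are pooled cIHC over pooled OHC on the log2 scale. Their 95% intervals cover counting error only and take each read as an independent count. The reads are amplified and carry no molecular identifiers, so these intervals are narrower than the error of counting molecules. Total counts ran from 5656512 to 9287413 per OHC and from 4677682 to 13792672 per cIHC, and 4769 to 8567 genes had reads in an OHC against 7081 to 11719 in a cIHC. Tbx2, the added gene, was between 0 and 0.123 CPM in OHCs and between 113 and 2643 CPM in cIHCs. All 10 hair cell markers were detected in 75% or more of both the OHCs and the cIHCs. The summed level of 8 OHC markers was 5385 to 10727 CPM in OHCs and 8.11 to 689 CPM in cIHCs, and that of 9 IHC markers was 680 to 3240 CPM and 3080 to 13484 CPM.

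One cell in each group stood apart by markers of supporting cells, the cells that surround hair cells. The summed level of 10 such markers was 889 CPM in 1 OHC and 875 CPM in 1 cIHC, against at most 221 and 170 CPM in the other cells. In the OHC this came from Epyc (772 CPM) and Gjb2 (117 CPM). In the cIHC it came from Gjb6 (388 CPM), Gjb2 (294 CPM) and Slc1a3 (184 CPM). In each group 8 of the 10 markers had a read in any cell; Otoa and Slc1a3 had none in OHCs, and Epyc and Fabp7 had none in cIHCs. Both cells were kept. Without them the log2 ratios of pooled levels were -7.55 for Ocm, -2.48 for Pvalb, 4.69 for Calb1, 2.17 for Calb2, 0.46 for Calm2, 0.20 for Calm3, -2.48 for Sri and -3.18 for S100a1, while S100b went to -4.16.

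Set against OHCs, the cIHCs held far less Ocm, S100a1, Pvalb and Sri, far more Calb1 and Calb2, and Calm2 and Calm3 within 2-fold. All 9 genes reached 10 CPM in 1 or both groups, as did 10041 genes in all. Of the 9, 5 were lower in cIHCs by 2-fold or more, where 14.3% of the 10041 genes were. Another 2 were higher by 2-fold or more, a share near the 26.3% of all genes that were, and the other 2 lay within 2-fold. The median log2 ratio of the 9 was -1.62, beside 0.25 for all 10041 genes. That median was the ratio of S100b, 1 of the 5 lower genes, which had a median of 0 CPM in both groups. Under other choices of processing, the ratio of S100b ran from -4.39 to 2.70. Ocm was the 1 gene among the 9 whose level in every cIHC was below that in every OHC, which held for 0.0896% of all genes. For 0 of the 9 was every cIHC above every OHC, as for 0.0797% of all genes.

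**Figure D1:**
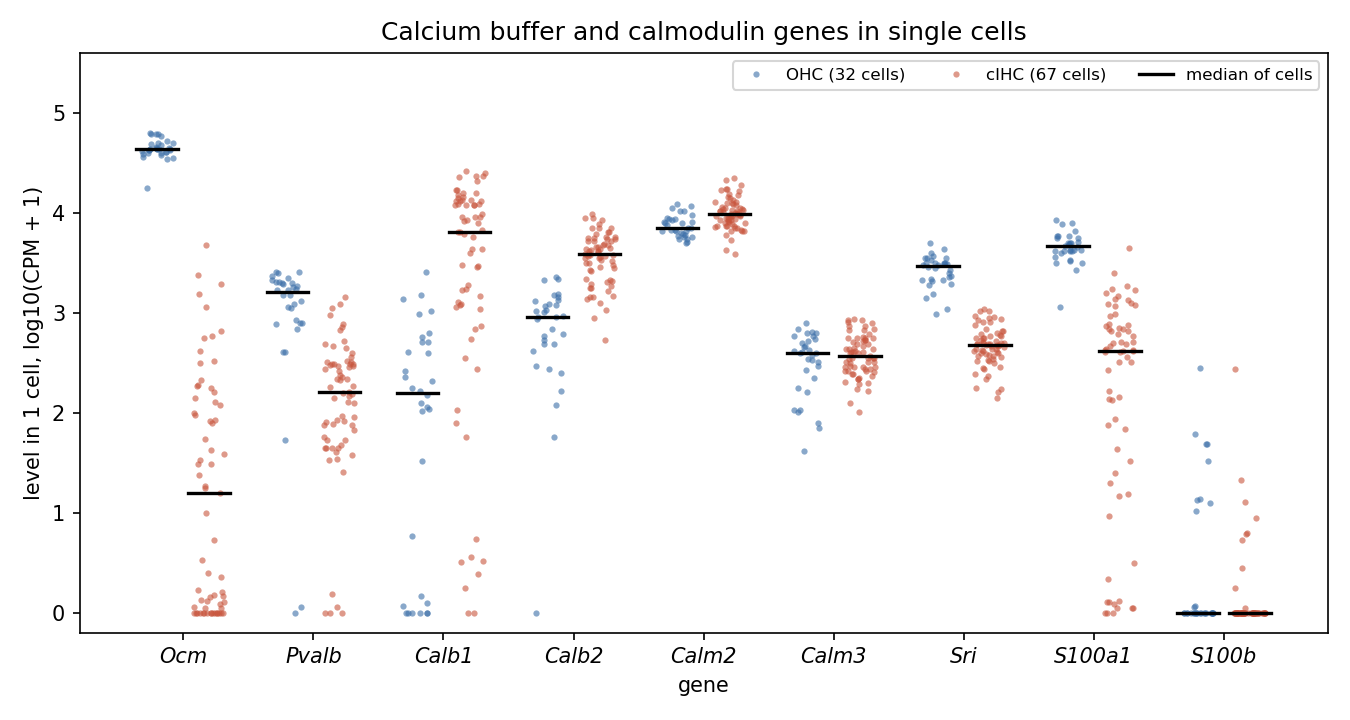
Level of each gene in each cell, as log10(CPM + 1), with 32 OHCs in blue and 67 cIHCs in red; each point is 1 cell and black bars are medians. The Ocm clouds do not overlap, the Calb1 points of cIHCs reach from 0 to 26542 CPM, and the Calm2 and Calm3 clouds overlap.

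Ocm and Pvalb are the 2 members of the parvalbumin family, small buffers that bind calcium tightly and release it slowly. Ocm lies on mouse chromosome 5 (mm10, chr5:144019804-144026670, minus strand) and Pvalb on chromosome 15 (chr15:78191114-78206400, minus strand). Their coding sequences are 58.8% identical and their proteins 48.2% identical, and each holds 2 matches to the EF-hand loop pattern. The bases of the first such loop, residues 52 to 63 counted from the first methionine, are shown because they tell how far apart the reads of these related genes are; capitals mark the 9 of 36 bases at which the loops differ, in the GENCODE M21 transcripts.
Ocm: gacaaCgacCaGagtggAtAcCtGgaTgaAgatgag
Pvalb: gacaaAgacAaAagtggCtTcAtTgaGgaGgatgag
No stretch of 50 bases of the longest coding transcript of either gene occurs in another gene.

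By pooled CPM, with no correction for length, Ocm ranked 1 among all genes in OHCs and 696 in cIHCs. Its level in OHCs was lowest at 17896 CPM, 43601 CPM at the median and highest at 62656 CPM, so that 4.49% of all OHC counts were Ocm. In cIHCs the lowest value was 0, the median 14.7 CPM and the highest 4718 CPM. All 67 cIHCs were below all 32 OHCs. Pooled levels were 44926 and 239 CPM, a ratio of -7.55 on the log2 scale (95% interval -7.56 to -7.54), or 188-fold lower. Within cIHCs the level was uneven. Ocm was under 10 CPM in 33 of the 67 cells, 10 to 100 CPM in 15, 100 to 1000 CPM in 14 and above 1000 CPM in 5, and 16 cells had no read. One cIHC gave 26.3% of all Ocm counts of its group, and leaving out the top cell of both groups gave a log2 ratio of -7.96. The ratio of the 2 medians, -11.53 on the log2 scale, was lower still.

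The cIHC with 4718 CPM of Ocm was also the highest of the 67 for S100a1 (4449 CPM) and Pvalb (1439 CPM) and the lowest for Calm3 (101 CPM), while its Calb1 was 2.62 CPM. The next cIHC had 2416 CPM of Ocm. In the cell with 4718 CPM, OHC markers summed to 448 CPM, with 12 cIHCs higher, and IHC markers to 8747 CPM, with 32 higher. Its Tbx2 was 232 CPM, with 57 higher. By the marker lists this cell therefore lay inside the cIHC range. Its summed supporting cell, glia and blood markers were each at 0.

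At the other end, the OHC with 17896 CPM of Ocm lay apart from the next lowest, at 34818 CPM. It was the OHC with the 889 CPM of supporting cell markers, and it also had the highest Calb1 of the OHCs (2543 CPM; the next was 1502 CPM). Its OHC markers summed to 8012 CPM, with 15 OHCs higher, and its hair cell markers to 9498 CPM, the lowest of the 32. The part of other cells' RNA in these values was not tested. Without this cell and its counterpart in cIHCs, the log2 ratio of Ocm was again -7.55 and that of Calb1 was 4.69.

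Pvalb was lower in cIHCs, but the groups overlapped. In OHCs its level ran from 0 through a median of 1602 CPM to 2584 CPM, and in cIHCs from 0 through 159 CPM to 1439 CPM. Of the OHCs, 18 were above every cIHC, and 22 had 1000 CPM or more, against 3 cIHCs. The pooled levels of 1429 and 248 CPM gave a log2 ratio of -2.53 (-2.54 to -2.52). The cIHC was the higher cell in 10.6% of the 2144 pairs of 1 cIHC with 1 OHC. Medians gave a log2 ratio of -3.34. Unlike Ocm, Pvalb kept reads in 64 of the 67 cIHCs (95.5%, exact Clopper-Pearson 95% interval 87.5 to 99.1%), of which 62 had 10 CPM or more.

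Calb1 codes for calbindin-D28k and Calb2 for calretinin, buffers with several EF-hands and faster binding than parvalbumins. They lie on chromosome 4 (chr4:15881264-15908064, plus strand) and chromosome 8 (chr8:110137502-110168210, minus strand). Their proteins are 58.1% identical, and the EF-hand loop pattern matches calbindin 4 times and calretinin 5 times. No stretch of 50 bases of the longest coding transcript is shared with another gene for either.

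Calb1 had a higher pooled level in cIHCs by 21.7-fold, a log2 ratio of 4.44 (4.43 to 4.45), and ranked 359 by CPM among all genes in OHCs and 6 in cIHCs. In OHCs the lowest level was 0, the median 157 CPM and the highest 2543 CPM. In cIHCs the lowest was 0, the median 6394 CPM and the highest 26542 CPM. The groups overlapped over the whole OHC range, with 25 of the 67 cIHCs inside it and 42 above every OHC. The cIHC was higher in 84.9% of pairs. Cells of both groups spread over more than 3 steps of 10-fold. Of the cIHCs, 24 had 10000 CPM or more, 27 had 1000 to 10000 CPM, 6 had 100 to 1000 CPM, 2 had 10 to 100 CPM and 8 had under 10 CPM. Of the OHCs, 10 had under 10 CPM, 17 had 100 to 1000 CPM and 4 had 1000 CPM or more. Over all counts Calb1 made up 0.831% of cIHC reads and 0.0383% of OHC reads. The log2 ratio was 5.34 from the medians. Within the cells with Xist reads it was 3.80, but 1 of the 4 such OHCs, the one with the 889 CPM of supporting cell markers, carried most of the OHC counts of Calb1: its 2543 CPM stood beside 4.91, 114 and 123 CPM in the other 3. Without it and its counterpart in cIHCs the ratio within cells with Xist reads was 6.72 (6.65 to 6.78).

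Calb2 was higher in cIHCs more evenly. Its level in OHCs ran from 0 through a median of 901 CPM to 2265 CPM, and in cIHCs from 539 CPM through 3854 CPM to 9755 CPM. Every cIHC had reads, and 50 of the 67 were above every OHC. Pooled levels of 907 and 4029 CPM gave a log2 ratio of 2.15 (2.15 to 2.16), and the cIHC was higher in 95.1% of pairs. The standard deviation between cIHCs was 51.7% of the mean for Calb2 and 95.8% for Calb1. Thus the pooled ratio was larger for Calb1, while fewer pairs of cells went with its direction than for Calb2.

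Calmodulin genes in the set are Calm2 (chr17:87433412-87446935, minus strand) and Calm3 (chr7:16915379-16924114, minus strand). Both code for the same 149 residues, counted with the first methionine, while their coding sequences are only 82.6% identical. The bases of the first EF-hand loop, residues 21 to 32, show how reads tell the genes apart although the protein cannot; capitals mark the 7 of 36 bases at which the loops differ, in the GENCODE M21 transcripts.
Calm2: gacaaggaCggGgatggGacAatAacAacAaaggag
Calm3: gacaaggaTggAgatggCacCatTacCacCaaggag
Of the 50-base stretches of the longest coding transcript of Calm2, 12.7% also occur in Gm7308, Gm15720 or Gm14480. Of those of Calm3, 2.77% occur in Gm5881. How the counting placed such reads is not given in the sources used here, so the levels of both genes are uncertain to that extent.

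Calm2 was within 2-fold between the groups. In OHCs it ran from 5050 CPM through a median of 7047 CPM to 12367 CPM, and in cIHCs from 3901 CPM through 9779 CPM to 22324 CPM. The ranges overlapped, with 16 cIHCs above every OHC and 2 below every OHC. The pooled levels of 7614 and 10222 CPM gave a log2 ratio of 0.42 (0.42 to 0.43), and the cIHC was higher in 76.0% of pairs. The cIHC that was lowest for Calm2, at 3901 CPM, was the one with the 875 CPM of supporting cell markers.

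Calm3 ran from 40.2 CPM through a median of 397 CPM to 798 CPM in OHCs and from 101 CPM through 368 CPM to 871 CPM in cIHCs. Of the cIHCs, 62 of 67 lay inside the OHC range. The pooled levels of 372 and 425 CPM gave a log2 ratio of 0.19 (0.18 to 0.21), and the cIHC was higher in 53.3% of pairs. Its direction was not settled, since the ratio of medians was -0.11 and the ratio within cells with Y-linked reads was -0.39.

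Per kilobase of exon, Calm2 stood far above Calm3 in both groups. Pooled levels per kilobase were 5190.4 and 153 CPM in OHCs and 6968 and 176 CPM in cIHCs. Calm2 gave 97.1% of the summed level of the pair in OHCs and 97.5% in cIHCs, and between 93.3 and 99.6% in every single cell. It was above Calm3 in 32 of 32 OHCs and 67 of 67 cIHCs.

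Sri codes for sorcin, a penta-EF-hand protein that binds ryanodine receptors and annexins in other tissues (chr5:8046078-8069379, plus strand). Its level ran from 966 CPM through a median of 2926 CPM to 5007 CPM in OHCs and from 138 CPM through 473 CPM to 1084 CPM in cIHCs. The ranges met only at their ends: 64 of the 67 cIHCs were below every OHC, and 31 of the 32 OHCs were above every cIHC. Every cell of both groups had reads. The pooled levels of 2813 and 509 CPM gave a log2 ratio of -2.47 (-2.47 to -2.46), 5.52-fold lower, and the cIHC was higher in 0.14% of pairs. The standard deviation between cIHCs was 43.6% of the mean, so Sri was lower at a similar level in most cIHCs, where Ocm was lower to levels from 0 to 4718 CPM.

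S100a1 and S100b belong to the S100 family, small EF-hand proteins that act as dimers and bind target proteins when calcium is high. They lie on chromosome 3 (chr3:90511034-90514392, minus strand) and chromosome 10 (chr10:76253853-76261159, plus strand), and their proteins are 57.4% identical. S100a1 is best known from heart and skeletal muscle, and S100b from glia.

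S100a1 ran from 1146 CPM through a median of 4609 CPM to 8401 CPM in OHCs, and from 0 through 412 CPM to 4449 CPM in cIHCs. All 32 OHCs had 1000 CPM or more, as did 13 of the 67 cIHCs, and 54 cIHCs were below every OHC. The cIHCs divided into 13 cells under 10 CPM, 9 with 10 to 100 CPM, 32 with 100 to 1000 CPM and 13 above. The pooled levels of 4753 and 547 CPM gave a log2 ratio of -3.12 (-3.12 to -3.11), 8.68-fold lower, and the cIHC was higher in 1.26% of pairs. The lowest OHC, at 1146 CPM, had no read of Calb1 or Calb2 and had reads in 4769 genes, the fewest of the OHCs; the next lowest OHC had 2711 CPM of S100a1.

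S100b was low or undetected in most cells of both groups. It had reads in 11 of 32 OHCs (34.4%, interval 18.6 to 53.2%) and 10 of 67 cIHCs (14.9%, 7.40 to 25.7%). After thinning each cell to the same number of reads the shares were 31.03 and 15.2%. The median cell of both groups was at 0, and 8 OHCs and 3 cIHCs had 10 CPM or more. The pooled levels were 16.5 and 5.37 CPM, a log2 ratio of -1.62 (-1.69 to -1.55). One OHC, at 282 CPM, gave 57.5% of the OHC counts, and one cIHC, at 274 CPM, gave 84.3% of the cIHC counts. Without both cells the log2 ratio was -3.08. The cIHC was the cell with the highest supporting cell markers, and it had the lowest summed IHC markers (3080 CPM) and hair cell markers (3448 CPM) of the 67. The OHC did not share this: its supporting cell markers summed to 0.246 CPM and its glia markers to 0.985 CPM. Without the cell of each group with the highest supporting cell markers the ratio was -4.16; the part of other cells' RNA in it was not tested. Among cells with Xist reads without those 2 cells, S100b had 1 read in 3 OHCs and 392 in 54 cIHCs, so that its direction turned there (4.28, interval 1.80 to 9.59).

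Dividing pooled CPM by the length of the union of a gene's exons allows the 9 genes to be set in order. In OHCs the order was Ocm, S100a1, Calm2, Pvalb, Sri, Calb2, Calm3, Calb1 and S100b, and Ocm, at 61291 CPM per kilobase, gave 80.6% of the summed level per kilobase. S100a1 followed with 9.005% and Calm2 with 6.83%. Ocm was above S100a1 in 32 of 32 OHCs and Calm2 above Pvalb in 32 of 32. S100a1 was above Calm2 in only 25, Calm3 above Calb1 in 24, Calb1 above S100b in 24 and Sri above Calb2 in 21. Those neighbours were therefore not clearly ordered. With the length of the longest coding transcript instead, the order was the same. S100a1 was then above Calm2 in only 19 OHCs, and Pvalb above Sri in only 19.

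In cIHCs the order was Calm2, Calb2, Calb1, S100a1, Ocm, Pvalb, Calm3, Sri and S100b. With the length of the longest coding transcript in place of the union of exons, Sri stood above Calm3 there, at 203 and 186 CPM per kilobase, and was the higher in 36 of 67 cells. Calm2 gave 55.2% of the summed level per kilobase, Calb2 18.3%, Calb1 13.6%, S100a1 6.24% and Ocm 2.58%. Calm2 was above Calb2 in 67 of 67 cells. Calb2 was above Calb1 in 40 cells and Calb1 above S100a1 in 40 cells, so 27 cells went the other way in each case. Ocm stood above Pvalb in pooled level but in only 20 of the 67 cells, since a few cells held most of its counts, and Pvalb was above Calm3 in only 31. The summed level of the 9 genes was 76046 CPM per kilobase in OHCs and 12632 in cIHCs, and in single cells it ran from 42552 to 100989 and from 7084 to 28063. Without Ocm the 9 genes held 1.83% of all OHC counts and 2.43% of all cIHC counts, and with it 6.32% and 2.45%.

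**Figure D2:**
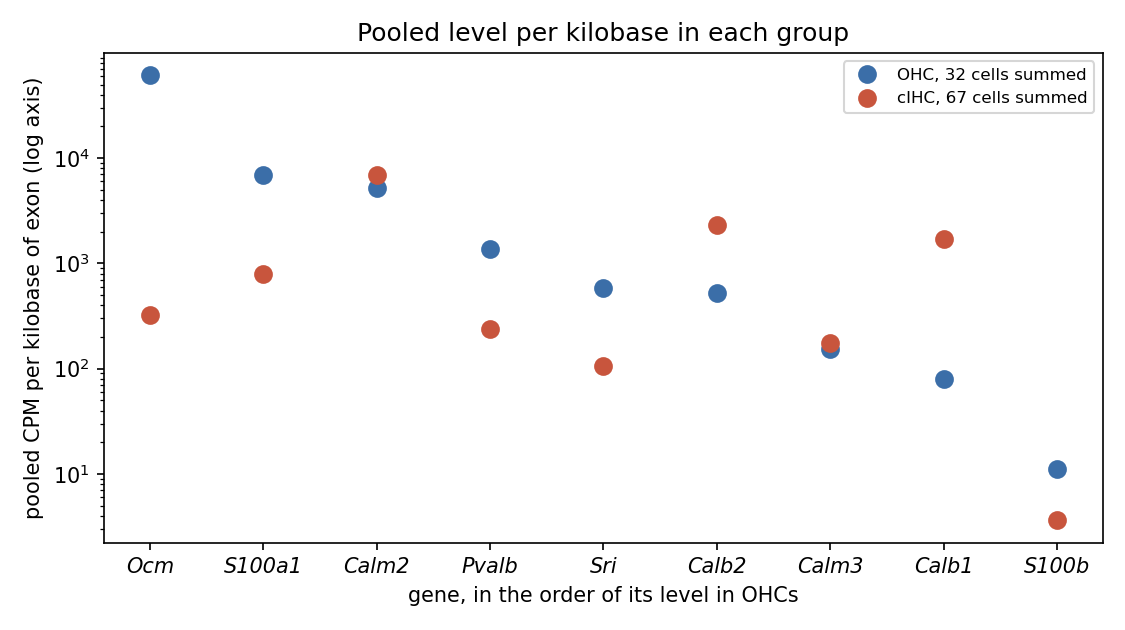
Pooled CPM per kilobase of exon on a log axis for each gene, in the order of its level in OHCs; blue points are 32 OHCs summed and red points 67 cIHCs summed. Ocm has 80.6% of the sum in OHCs and Calm2 has 55.2% of it in cIHCs, and the Calm2 and Calm3 points of both groups nearly coincide.

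Sex went largely with the group. Xist reads at 10 CPM or more marked 55 cIHCs and 4 OHCs, Y-linked reads marked 12 cIHCs and 24 OHCs, and 4 OHCs had neither. The 12 cIHCs with Y-linked reads are those numbered 1 to 12 in their titles and the 55 with Xist reads those numbered 13 to 67, so the cIHCs came from animals of both sexes, and sex and the run of title numbers cannot be told apart in them. The median mitochondrial share of counts was 5.65% in these 12 and 3.19% in these 55. Within the cells with Xist reads the log2 ratios were -7.35 for Ocm, -3.03 for S100a1, -2.35 for Pvalb and -2.08 for Sri, and within the cells with Y-linked reads they were -7.59, -3.44, -2.78 and -2.43. Calb1 was at 3.80 and 4.19 and Calb2 at 2.34 and 2.03. These 6 genes kept their direction and stayed past 2-fold in both. Without the 2 cells with the highest supporting cell markers, both of which had Xist reads, the ratios within the Xist cells were -7.53 for Ocm, -3.09 for S100a1, -1.97 for Pvalb, -2.26 for Sri, 6.72 for Calb1 and 2.47 for Calb2. Calm2 was at 0.17 and 0.59 on the same scale.

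How the genes vary together was described with correlations across the cells of a group. Over the 28 pairs that can be made of the 8 genes other than S100b, Spearman's rho across the 32 OHCs lay between -0.257 and 0.498 with a median of 0.10, and 0 pairs reached a size of 0.5 by rho. Across the 67 cIHCs rho lay between -0.80 and 0.56, and 10 of 28 pairs had a size of 0.5 or more. Other measures set the groups less far apart by count. Pearson's r of log2(CPM + 1) had a size of 0.5 or more in 3 pairs in OHCs and in 6 pairs in cIHCs. The 3 in OHCs were Calb2 with Pvalb at 0.74, Calb2 with S100a1 at 0.53 and Pvalb with S100a1 at 0.51. The OHC lowest for S100a1 (1146 CPM) had no read of Calb2 and 0.142 CPM of Pvalb. In the 24 OHCs with Y-linked reads, which leave that cell out, those 3 values were 0.48, -0.008 and 0.16. The part of that cell in them was not tested. Without the 2 cells farthest from the median of a pair's first gene, rho had a size of 0.5 or more in 1 pair in OHCs and 8 in cIHCs. The 1 pair in OHCs was Calb1 with Sri, at 0.64, and it was at 0.63 in the OHCs with Y-linked reads. The difference between the groups was not tested. How many pairs among all genes reach a size of 0.5 in the same cells is not given here. These counts therefore cannot be read as a trait of calcium buffer genes. Among the cIHCs, Calb1 ran against Ocm, Pvalb, Calb2, Calm2 and S100a1, and those 5 genes ran with each other. Among the OHCs, Calb1 ran against S100a1 alone of these 5 (-0.22). The 5 genes ran with each other there too, but more weakly, with rho from 0.03 to 0.31. All are levels of the same libraries, so depth and library quality are shared by both genes of a pair, and the correlations are given as descriptions.

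**Figure D3:**
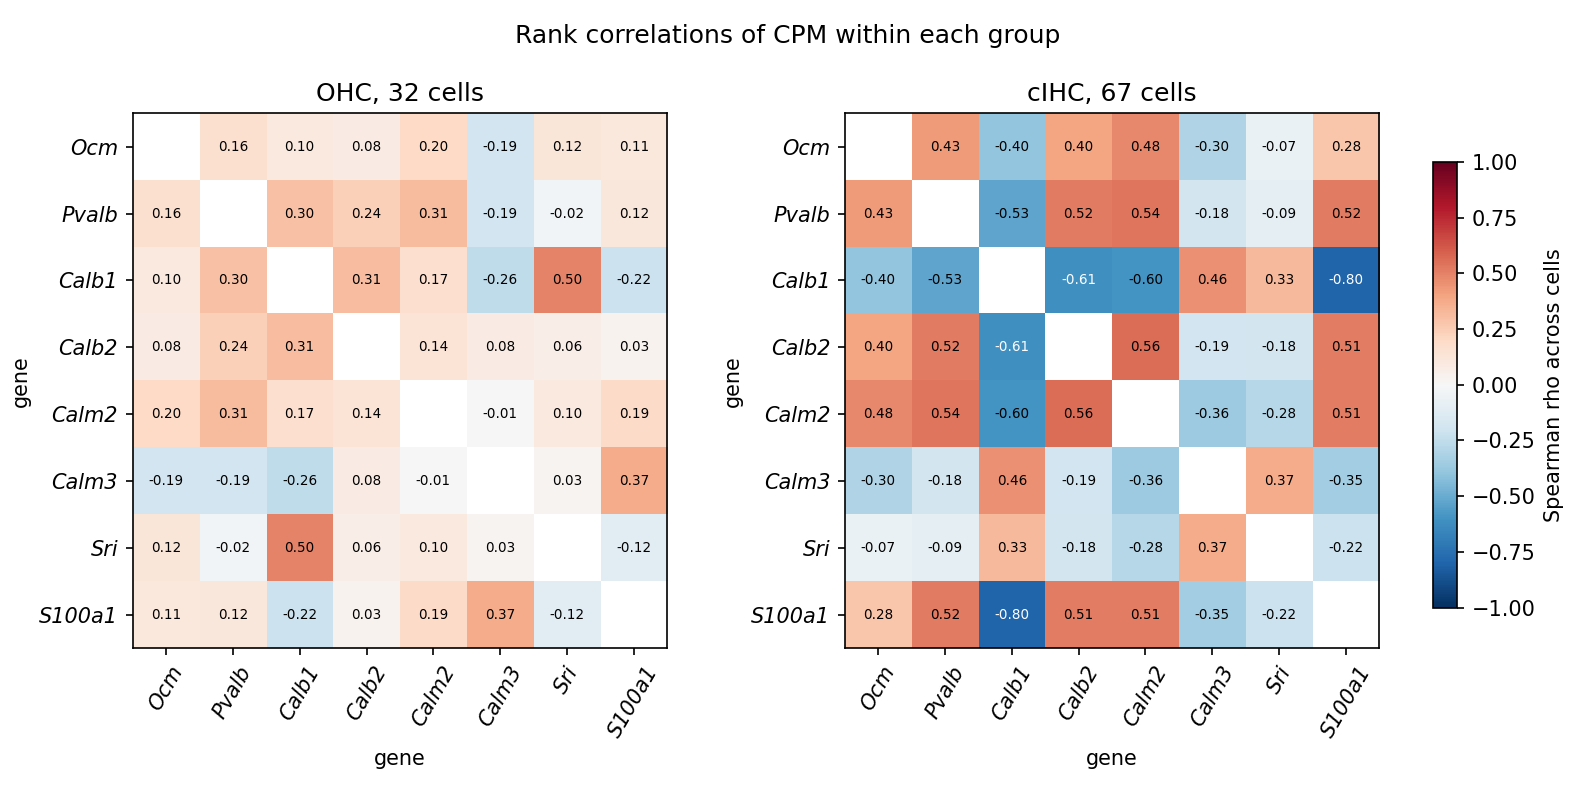
Spearman's rho of CPM between genes across 32 OHCs (left) and across 67 cIHCs (right), with S100b left out; red is positive and blue negative. The row of Calb1 in cIHCs holds -0.80 with S100a1, -0.61 with Calb2 and -0.60 with Calm2, while in OHCs its values with these 3 are -0.22, 0.31 and 0.17.

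The pair that went furthest was Calb1 and S100a1. Across the 67 cIHCs rho was -0.80 and Pearson's r of log2(CPM + 1) was -0.57. Without the 2 cells farthest from the median of Calb1, rho was -0.79. It was -0.79 in the 55 cIHCs with Xist reads and -0.71 in the 12 with Y-linked reads, and -0.22 in the OHCs. All 13 cIHCs with S100a1 under 10 CPM had 9138 CPM of Calb1 or more. Conversely, all 8 cIHCs with Calb1 under 10 CPM had 428 CPM of S100a1 or more. No cIHC was thus under 10 CPM for both genes. With 13 and 8 such cells among 67, few would be under it for both even if the genes were unrelated. The empty overlap by itself therefore says little. In OHCs the 10 cells with Calb1 under 10 CPM had 1146 to 7897 CPM of S100a1.

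**Figure D4:**
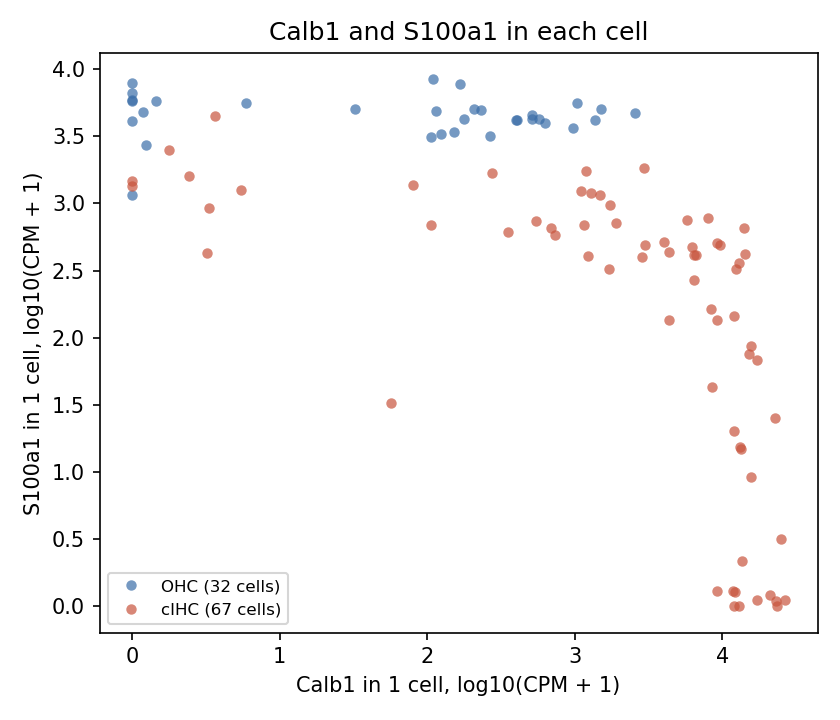
S100a1 against Calb1 in each cell, both as log10(CPM + 1), for 32 OHCs in blue and 67 cIHCs in red. The OHCs stay at 1146 CPM of S100a1 or above whatever their Calb1, while the 13 cIHCs under 10 CPM of S100a1 all sit at 9138 CPM of Calb1 or above.

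Other pairs in cIHCs were weaker. Calb1 with Calb2 had a rho of -0.61, with Calm2 -0.60 and with Pvalb -0.53, while Calb2 with Calm2 had 0.56. Calb1 with Sri was positive in both groups, 0.33 in cIHCs and 0.50 in OHCs. Other measures of the cells moved along with these levels. In cIHCs Calb1 had a rho of 0.58 with Tbx2, 0.54 with the number of genes with reads, 0.48 with total counts and -0.62 with the mitochondrial share of counts. S100a1 had -0.62 with Tbx2 and 0.61 with the mitochondrial share, and Calm2 had -0.52 with Tbx2. Tbx2 itself had -0.61 with the mitochondrial share, which ran from 0.287 to 9.61% in cIHCs and from 4.36 to 12.6% in OHCs. The part of the Tbx2 level, depth or library quality in the pairing of Calb1 and S100a1 was not tested.

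For each gene and group, the 3 genes most like it were those with the highest rho of CPM across cells, among genes that averaged 10 CPM or more and were detected in 75% or more of the cells. Genes among these 3 are given for the 5 members that reached the highest rho. In cIHCs, over 67 cells and 4851 other genes, those of Calb1 included Gm6831 (0.82), a transcribed pseudogene, and Laptm4b (0.71), a lysosomal membrane gene. S100a1 was nearest to Gpx2 (0.79), a glutathione peroxidase, mt-Rnr1 (0.74), a mitochondrial ribosomal RNA, and Rab15 (0.71), a vesicle GTPase. Those of Calm2 included Limd2 (0.69) and Gltp (0.68). Pvalb was nearest to Capg (0.67), Gpx2 (0.64) and Limd2 (0.61). In OHCs, over 32 cells and 2513 other genes, Sri was nearest to Dynlt1c (0.66), H3f3b (0.60) and Pik3c2b (0.56).

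Tbx2 belongs to the T-box factors, whose known half-site is AGGTGTGA with the core AGGTGT. RefSeq windows of 300 bases (GRCm38.p6, 250 before to 50 after a start) were at hand for 6 of the 9 genes, Ocm, Pvalb, Calm3, Sri, S100a1 and S100b, with 2 windows for Pvalb. On either strand the core was found in 3 of the 7 windows, from the 3 genes Ocm, Pvalb and Sri. Of all 32851 windows of the table, 13.7% hold it. Of the 6 genes, 5 were lower in cIHCs by 2-fold or more, and 2 of these, S100a1 and S100b, had no match, nor had Calm3. No window was at hand for Calb1, Calb2 or Calm2, so the genes higher by 2-fold, Calb1 and Calb2, could not be searched. The full half-site, in 1.28% of all windows, was in none of the 7. The 3 windows with a match are shown on the gene's strand because they belong to genes that differ between the groups; capitals mark AGGTGT or its reverse complement ACACCT. The windows are chr5:144050560-144050859 (minus strand) for Ocm, chr15:78206351-78206650 (minus strand) for Pvalb and chr5:8045828-8046127 (plus strand) for Sri.
Ocm: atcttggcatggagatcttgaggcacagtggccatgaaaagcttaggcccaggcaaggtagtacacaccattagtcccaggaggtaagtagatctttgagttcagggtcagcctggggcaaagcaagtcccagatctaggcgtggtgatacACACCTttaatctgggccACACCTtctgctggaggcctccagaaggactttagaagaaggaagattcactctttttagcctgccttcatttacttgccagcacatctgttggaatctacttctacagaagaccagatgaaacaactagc
Pvalb: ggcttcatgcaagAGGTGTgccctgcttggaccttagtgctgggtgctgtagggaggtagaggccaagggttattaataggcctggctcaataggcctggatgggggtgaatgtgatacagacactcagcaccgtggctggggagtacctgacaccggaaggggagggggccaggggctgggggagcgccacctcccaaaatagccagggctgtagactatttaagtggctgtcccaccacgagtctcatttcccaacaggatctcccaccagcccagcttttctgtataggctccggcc
Sri: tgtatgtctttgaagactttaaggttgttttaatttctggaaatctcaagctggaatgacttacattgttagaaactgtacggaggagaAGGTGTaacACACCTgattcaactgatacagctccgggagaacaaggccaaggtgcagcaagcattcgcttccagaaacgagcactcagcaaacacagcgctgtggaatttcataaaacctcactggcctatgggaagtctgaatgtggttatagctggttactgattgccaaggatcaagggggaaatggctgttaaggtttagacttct
Ocm and Sri hold 2 matches each and Pvalb 1. The RefSeq start behind the Ocm window lies 23939 bases from the 5′ end of the Ocm gene in GENCODE M21, so the 2 annotations place its promoter differently. A match of letters is a description of these windows and not a site of binding.

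Beyond the 9 genes, partner genes were described from lists, counting those that reached 10 CPM in 1 or both groups. Of 4 further calmodulin and calmodulin-like genes, Calm4, Calm5 and Calml3 had no read in any cell. Calml4, a calmodulin-like myosin light chain of the intestinal brush border, had 1955 and 847 CPM, a log2 ratio of -1.21, and the cIHC was higher in 4.06% of pairs. Of 16 further S100 genes, 2 reached 10 CPM: S100a13 at 47.1 and 14.9 CPM (-1.66) and S100pbp, which codes for an S100-binding protein, at 15.4 and 11.5 CPM (-0.42). S100a1 was thus the 1 S100 gene above 100 CPM in a pool. Scgn, which codes for the buffer secretagogin, was at 1.85 CPM in OHCs, all of it from 1 cell, and had no read in the other 31 OHCs or in cIHCs.

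Of 7 penta-EF-hand genes other than Sri, 4 reached 10 CPM, and 3 of these were higher by 2-fold or more while none was lower, beside 26.3% higher and 14.3% lower among all genes. Pdcd6, which codes for ALG-2, was at 90.7 and 294 CPM (1.70) and higher in the cIHC in 86.0% of pairs. Pef1, its partner, was at 17.2 and 48.8 CPM (1.51) and the calpain Capn2 at 8.31 and 30.8 CPM (1.89), while the small calpain subunit Capns1 had a log2 ratio of -0.34. Among the 5 partners of sorcin, the ryanodine receptor Ryr2 was at 31.9 CPM in OHCs and 0.579 CPM in cIHCs (-5.78), Ryr1 at 5.20 and 12.3 CPM (1.24), and the annexin Anxa7 at 21.99 and 42.4 CPM (0.95). Ryr2 had a median of 3.72 CPM and a maximum of 215 CPM in OHCs, so most of its level came from some of the OHCs.

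Calcium binders of the endoplasmic reticulum, the store from which ryanodine receptors release the ion, differed little. Of 12 genes, 9 reached 10 CPM. Of these 9, 8 lay within 2-fold, 1 was higher and none was lower, beside 26.3% higher and 14.3% lower among all genes. The median log2 ratio of the 9 was 0.26, next to 0.25 for all genes. The exception was Rcn1, which codes for reticulocalbin, at 305 and 647 CPM (1.09). Calu, which codes for calumenin, was next at 0.54, and the lowest were the chaperones Canx at -0.44 and Hsp90b1 at -0.26.

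Of 36 targets and regulators of calmodulin, 19 reached 10 CPM, 6 were higher by 2-fold or more, 2 were lower and 11 lay within 2-fold, shares near the 26.3% and 14.3% of all genes. Their median log2 ratio was 0.27, next to 0.25 for all genes. The 2 lower ones were Pcp4, a small protein that speeds the exchange of calcium on calmodulin, and Ppp3ca, a catalytic subunit of calcineurin. Pcp4 ran from 2287 CPM through 3220 CPM to 4840 CPM in OHCs and from 162 CPM through 715 CPM to 2282 CPM in cIHCs. Every cIHC was thus below every OHC, as for Ocm, although the highest cIHC and the lowest OHC nearly met. Its pooled ratio was -1.90, and that of Ppp3ca was -1.02, from 188 to 92.7 CPM with the cIHC higher in 36.8% of pairs. The largest ratios were those of Camkk1, a kinase kinase, at 0.0124 and 11.1 CPM, where the OHC pool held 3 reads (9.80, interval 8.25 to 12.08), and of Rcan2, a calcineurin regulator, with no read in OHCs and 10.1 CPM in cIHCs. The kinase Dapk1 was at 2.03 and 46.2 CPM (4.51). Camk2b, a calmodulin-dependent kinase known from neurons, was within 2-fold at 378 and 442 CPM.

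**Figure D5:**
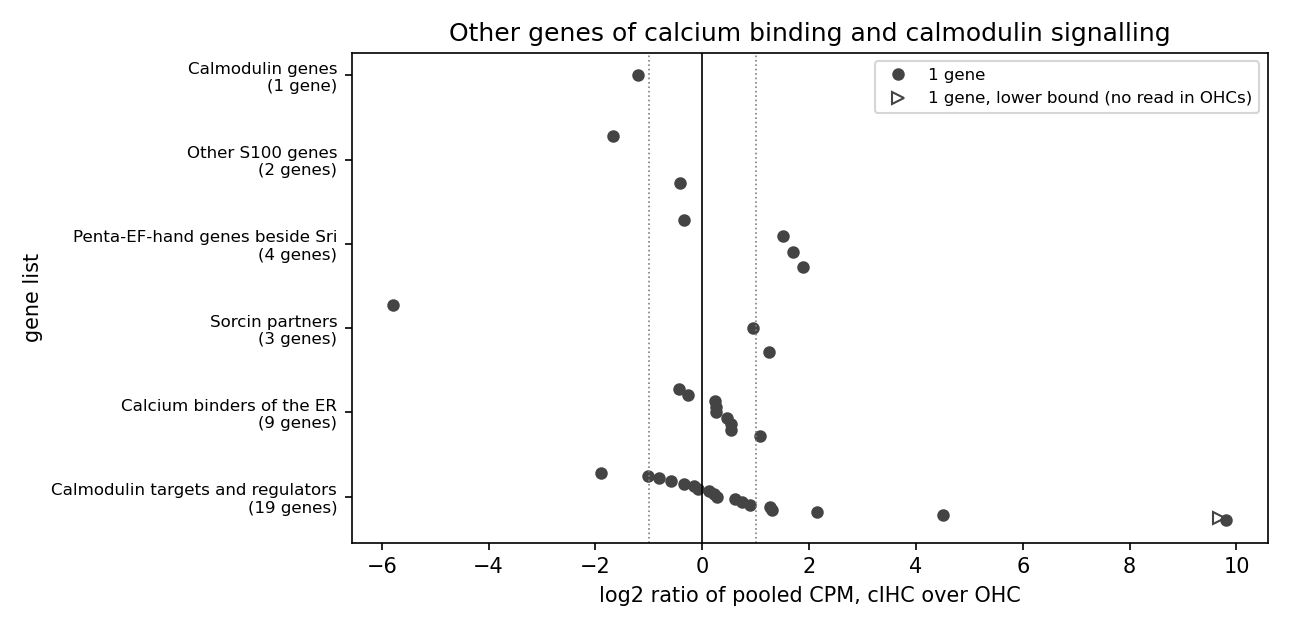
Log2 ratio of pooled CPM, cIHC over OHC, for the genes of 6 lists that reached 10 CPM in 1 or both groups; each point is 1 gene, dotted lines mark 2-fold, and the open triangle is a lower bound. Genes of the endoplasmic reticulum (ER) lie between -0.44 and 1.09, while 3 of 4 penta-EF-hand genes lie above 1 and Ryr2 lies at -5.78.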

How the data were processed

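The authors deposited 1 table of whole-number read counts per gene symbol for 99 cells. Per the submitters' processing notes, HISAT2 2.2.1, StringTie 2.2.1, featureCounts 2.0.1 and mm10 were used; the annotation, strand setting and filters are not given in the sources used here. Per the labels' protocols, enzymes and trituration freed the cells, and each picked cell was amplified with the Smart-Seq HT kit and tagmented. That shared text mentions endogenous IHCs and iOHCs; groups here follow the titles. OHCs of an earlier study that the design text mentions were not analysed here.

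Cells were assigned by their titles and none was left out, since each was picked singly. Because no animal is named, counts were summed per group and no test was run. The 95% intervals of ratios are exact conditional binomial ones, and those of cell shares are Clopper-Pearson. Where a group had no read, 3 counts over the group were used instead and the ratio is a bound. Genes with 10 CPM or more in 1 or both pools (10041) form the background. The table had 0 columns of no sample, and no 2 columns were identical. Detection was recomputed with each cell thinned to 5770000 reads, which 29 OHCs and 66 cIHCs reach.

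The 9 genes, the lists and the markers were chosen with earlier results of these data known, and the cells that stand apart were picked out after their values were seen. Some items that belong to these rules are not reported here. Examples in a list are the 2 highest and the 2 lowest ratios among genes with 10 CPM, plus those needed to account for it; Camk2b and Calml4's distribution were added after their values were seen. Gene spans, exon lengths and coding sequences come from GENCODE M21 (GRCm38, the mm10 assembly; the union of exons, with the longest coding transcript as the alternative), which holds 96.4% of the symbols and need not be the annotation used for counting. Promoter windows come from RefSeq (GRCm38.p6). Ratios were tested on simulated counts of 9172 genes, where the ratio was recovered to within 0.5 (log2) for 96.5% of 200 altered genes. The simulation gave every gene the same form of spread between cells, drawn independently for each gene. It cannot tell how well ratios are recovered for genes as uneven as Ocm and S100b. Across cIHCs their standard deviations were 285% and 678% of the mean. Steps used Python 3.11.15, numpy 2.4.6, pandas 2.3.3, scipy 1.17.1, Biopython 1.88, matplotlib 3.10.9, and edgeR 4.0.16 in R 4.3.3 for the TMM factor alone.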

Additional observations from a re-analysis of the deposited data

How the results depend on the processing

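Each log2 ratio was recomputed under 13 other choices, of which leaving out the cell of each group with the highest supporting cell markers, over all cells or over those with Xist reads, was chosen after seeing the data. Ocm, Calb1, Calb2, Pvalb, Calm2, Sri and S100a1 kept their direction under every choice that gave a value, with ranges of -11.53 to -7.35, 3.80 to 6.72, 1.96 to 2.47, -3.34 to -1.97, 0.17 to 0.59, -2.66 to -2.08 and -3.48 to -3.02. Both ends for Calb1 come from the cells with Xist reads, with and without the supporting marker cells, since 1 of 4 such OHCs held 2543 CPM. S100b ran from -4.39 to 2.70; it turned only in the Xist cells without those cells, where the OHCs held 1 read and the floor of 3 counts was used. Calm3 turned to -0.11 from medians and to -0.39 in cells with Y-linked reads; the cause was not tested. The TMM factor shifted every log2 ratio by -0.19, and scaling by the median of ratios by -0.15. The counts of 5 of the 9 genes lower and 2 higher by 2-fold held under all of them, except that medians gave 4 lower, since S100b has a median of 0, and the last choice gave 4 lower and 3 higher. Over all genes, those lower and higher by 2-fold or more were 589 and 990 with a minimum of 50 CPM and 4382 and 9793 with no minimum, because fewer or more genes were counted. No paired analysis was possible because nothing here comes from a test; title numbers follow sex in cIHCs, and no label ties an OHC to a cIHC. By the longest coding transcript Sri's share of the summed level per kilobase was 1.35% in cIHCs, from 0.831%, and 1.32% in OHCs, from 0.762%. The limits are 1 sample per group, age and genotype that differ together, no IHCs for comparison, and reads shared between calmodulin genes and their pseudogenes.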
